A study of Mus musculus with 4 samples.

Results

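Histone genes, both the clustered genes tied to DNA replication and the variant genes outside the clusters, were followed across bone marrow macrophages and osteoclasts of 2 mouse genotypes. A gene was taken as a histone gene by its symbol: H1f, H2ac, H2bc, H3c, H4c, H2az, H2ax, H3f and H4f genes, and those whose older names begin with Hist1h to Hist4h, H2afx, H2afz, H2afv or H2afy. The rule found 88 genes in the RefSeq gene table, 71 clustered and 17 variant. Of these, 60 had a named probe on the array (48 clustered and 12 variant), among 22903 genes with a named probe. On at least 1 array 58 of the 60 were well above background, and on all 4 arrays 55 were. H2ac7, a clustered H2A gene, and H1f7, a linker histone known from spermatids, were not well above background on any array. The other 28 genes, 7 of them pseudogenes, had no probe that could be named.

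Each of 4 groups had 1 one-colour array. They were LysM-St18flox osteoclasts, wild-type osteoclasts, LysM-St18flox macrophages and wild-type macrophages, all grown from mouse bone marrow. Macrophages were marrow cells kept with M-CSF, a macrophage growth factor, at 25 ng/ml for 4 days. Osteoclasts, the cells that resorb bone, were such macrophages after 3 more days with M-CSF at 25 ng/ml and with RANKL, which induces osteoclasts, at 50 ng/ml. The effects of RANKL and of the added time in culture cannot be told apart. LysM-St18flox is by convention a floxed St18 gene, which encodes a zinc finger transcription factor, with Cre from the lysozyme M locus, which acts in myeloid cells. The labels do not say how old or of which sex the mice were, how many were used or whether cultures shared a mouse.

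Replication-dependent histone genes lie in clusters and are transcribed in S phase, when new DNA must be packed. Their mRNAs end in a stem-loop in place of a poly(A) tail, are processed with the help of the stem-loop binding protein SLBP, and are degraded when replication stops. Variant genes such as H2az1 and H3f3a make polyadenylated mRNA through the whole cell cycle, and H2ax is known to make both forms. Some clustered genes also make polyadenylated transcripts in differentiated cells; in human cells the homologues of H2bc4 and H2bc21 are among them. The labelling kit starts from an oligo(dT) primer, so the signal of a clustered gene is weighted toward whatever polyadenylated RNA it makes. Clustered genes of a class are also nearly identical in their coding sequence, and a probe may have read several of them. Probe sequences are not in the files used here, so how much signal the probes shared could not be checked, and genes of a class are not independent measurements.

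Signals are given as log2 of the processed signal relative to the 75th percentile of the array, and differences are on the same log2 scale. No difference has a replicate check. A gene was counted as higher or lower at 2-fold or more, which is a size and no test. The share of spots well above background was 59.0% to 63.2%, no spot was saturated, and spots of the same probe gave a calculated SD of a difference of 0.045 to 0.057, which leaves out the spread between cultures. St18 was at 1.12 in LysM-St18flox and 1.55 in wild-type osteoclasts, and at -1.52 in LysM-St18flox and 0.30 in wild-type macrophages. Where its probes lie relative to the floxed part is not given, so this does not check the deletion. All 10 osteoclast markers were higher in osteoclasts than in macrophages of both genotypes, and all 8 macrophage markers were well above background on every array. Between genotypes, osteoclasts with LysM-St18flox exceeded wild-type ones at least 2-fold in 8 of 10 osteoclast markers, with a median difference of 1.20, Oscar at 2.31, Calcr at 2.10 and Mmp9 at 2.08. In macrophages 0 of 9 measured osteoclast markers were higher and 2 were lower, with a median of 0.01. Of the 8 macrophage markers, 2 differed by 2-fold or more between the macrophages of the genotypes. These were Mertk at 1.66 and Mrc1 at 1.41, and 0 were that much lower, with a median of 0.19. Between osteoclasts 0 of the 8 reached 2-fold, with a median of 0.02. The part of these marker differences in the osteoclast and macrophage comparisons of histone genes was not tested.

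Most clustered histone genes had lower signals in LysM-St18flox than in wild-type cells, in osteoclasts and macrophages alike, and 6 of 9 H4 genes were more than 2-fold lower in each. Among LysM-St18flox macrophages, 12 of 46 measured clustered genes were at least 2-fold lower and 0 were higher, beside 3.01% of all 15160 genes measured that were lower and 3.30% that were higher. In LysM-St18flox osteoclasts, 12 of 47 were at least 2-fold lower and 1 was higher, beside 3.93% and 3.82% of all 14615 genes. The difference was below 0 for 38 of 46 clustered genes in macrophages, where 51.9% of all genes were below 0, and for 37 of 47 in osteoclasts, where 50.4% were. The median clustered gene differed by -0.68 in macrophages and by -0.54 in osteoclasts, while the median of all genes was -0.02 and -0.00. These counts hold bounds for H2bc22 in both cell types and for H1f6 in osteoclasts, whose sign was set by the genotype in which they were detected. No variant gene reached 2-fold, in 10 measured in macrophages and 11 in osteoclasts, and their medians were -0.09 and -0.17. With so few variants measured, 0 past 2-fold is near the shares of all genes. The median of clustered genes stayed below 0 with every scaling tried, between -0.70 and -0.36 in macrophages and between -0.54 and -0.29 in osteoclasts; that of variant genes in osteoclasts was 0.08 with median centring. With median centring, which moves the median of all genes in osteoclasts to 0.24, 7 histone genes were at least 2-fold lower and 4 higher there. Less histone RNA per cell, fewer cells that make it and a smaller polyadenylated part of it cannot be told apart in these bulk samples.

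**Figure D1:**
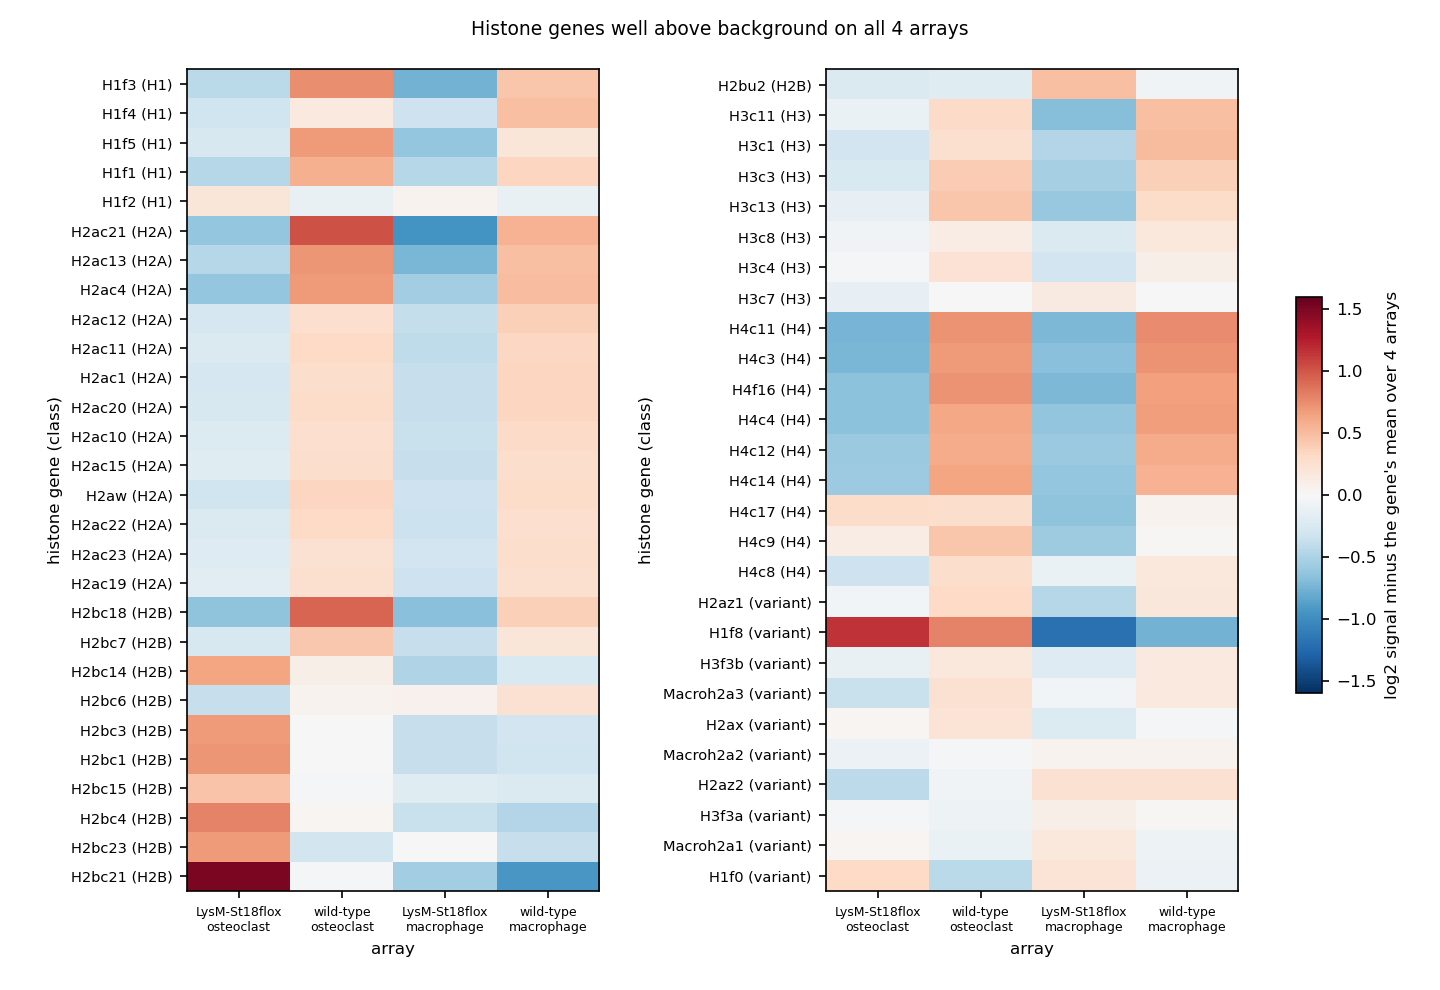
Deviation of each histone gene's log2 signal (colour scale) from its own mean over the 4 arrays, for the 55 genes never below the detection limit, grouped by class. The 6 H4 genes past 2-fold in the right panel are blue on both LysM-St18flox arrays and red on both wild-type arrays, while several H2B genes in the left panel are red on the LysM-St18flox osteoclast array.

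H4, which pairs with H3 at the centre of the nucleosome, had the lowest median of the 5 classes, -1.18 in macrophages and -1.21 in osteoclasts. All 9 measured H4 genes were below 0 in macrophages and 8 of 9 in osteoclasts, and the median stayed at or below -0.96 with every scaling. H4c4 was at 6.22 in LysM-St18flox osteoclasts and 7.50 in wild-type osteoclasts, and at 6.25 in LysM-St18flox macrophages and 7.55 in wild-type macrophages. H4f16, which lies on chromosome 6 away from the main cluster, was at 2.53 and 3.90 in LysM-St18flox and wild-type osteoclasts, and at 2.46 and 3.83 in LysM-St18flox and wild-type macrophages. H4c11 was at 0.52 and 1.99 in LysM-St18flox and wild-type osteoclasts, and at 0.55 and 2.02 in LysM-St18flox and wild-type macrophages. In each of these 3 genes the arrays fell by genotype and hardly by cell type. The level in LysM-St18flox was 2.44-fold lower in osteoclasts and 2.47-fold lower in macrophages for H4c4, 2.59-fold and 2.58-fold lower for H4f16, and 2.78-fold lower in each for H4c11.

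H4c3, H4c12 and H4c14 completed the 6 H4 genes past 2-fold in both cell types. Their differences in osteoclasts and macrophages were -1.41 and -1.38 for H4c3, -1.21 and -1.18 for H4c12, and -1.21 and -1.18 for H4c14. A second, dimmer probe of H4c12 gave -1.61 in osteoclasts and -1.41 in macrophages, and a second probe of H4c4 gave -1.51 and -1.44. The remaining H4 genes varied more. H4c8 differed by -0.61 in osteoclasts and -0.28 in macrophages, and H4c9 by -0.33 and -0.57. H4c17 differed by 0.02 in osteoclasts and by -0.70 in macrophages.

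H2A genes were lower in LysM-St18flox cells without exception: all 13 measured genes were below 0 in both cell types, under every scaling tried. The median was -0.71 in macrophages and -0.55 in osteoclasts. Of these, H2ac1, H2ac10, H2ac11, H2ac12, H2ac15, H2ac19, H2ac20, H2ac22 and H2ac23 are, together with H4c4, the 10 clustered genes of highest signal, and they moved almost alike. H2ac12 was at 7.84 in LysM-St18flox osteoclasts and 8.38 in wild-type osteoclasts, and at 7.73 in LysM-St18flox macrophages and 8.49 in wild-type macrophages. H2ac19, the one with the smallest differences, was at 7.20 and 7.62 in LysM-St18flox and wild-type osteoclasts, and at 7.04 and 7.62 in LysM-St18flox and wild-type macrophages. H2ac1, known from testis, differed by -0.54 in osteoclasts and -0.71 in macrophages. H2aw, of the former Hist3 cluster, differed by -0.67 and -0.62.

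Past 2-fold were 3 H2A genes, in both cell types. H2ac21 was at -4.52 in LysM-St18flox osteoclasts and -2.88 in wild-type osteoclasts, and at -4.86 in LysM-St18flox macrophages and -3.34 in wild-type macrophages. These are dim signals, and the gene was 3.12-fold lower in LysM-St18flox osteoclasts and 2.88-fold lower in LysM-St18flox macrophages. H2ac13 differed by -1.16 in osteoclasts and -1.21 in macrophages. H2ac4 differed by -1.30 in osteoclasts and by -1.06 in macrophages, where 4 other ways of processing put it below 2-fold, the smallest difference being -0.78.

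H3 and the linker histone H1 followed the same direction with fewer genes past 2-fold. The median H3 gene differed by -0.91 in macrophages and -0.42 in osteoclasts, and the median clustered H1 gene, of the family that binds DNA between nucleosomes, by -0.82 and -0.91. The H3 median in osteoclasts lay between -0.42 and -0.17 over the settings, with 4 to 7 of the 7 genes below 0. H3c11 was at -2.52 in LysM-St18flox macrophages and -1.36 in wild-type macrophages, a 2.23-fold lower level that was below 2-fold with normexp background correction (-0.95), while its difference in osteoclasts was -0.42. H3c3 was at 2.81 and 3.46 in LysM-St18flox and wild-type osteoclasts, and at 2.52 and 3.44 in LysM-St18flox and wild-type macrophages. H3c7 differed by -0.13 in osteoclasts and 0.15 in macrophages, and was the only H3 gene above 0 in macrophages; it was at 0.12 in osteoclasts with median centring and at -0.03 in macrophages with normexp. H1f3 was at -0.35 and 0.82 in LysM-St18flox and wild-type osteoclasts, and at -0.68 and 0.52 in LysM-St18flox and wild-type macrophages. That was 2.25-fold lower in LysM-St18flox osteoclasts and 2.30-fold lower in LysM-St18flox macrophages. H1f1 differed by -1.03 in osteoclasts, where 5 other settings put it below 2-fold, and -0.81 in macrophages, H1f4 by -0.47 and -0.82, and H1f5 by -0.93 and -0.82. H1f2 was above 0, by 0.32 in osteoclasts and 0.18 in macrophages. H1f6, known from testis, was well above background in wild-type osteoclasts alone, and was at least 1.84-fold lower in LysM-St18flox osteoclasts.

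H2B genes did not follow the other clustered classes. In LysM-St18flox osteoclasts 8 of 12 were above 0, counting the bound of H2bc22, beside 7253 of all 14615 genes. Osteoclast markers were also higher in these cells, and their part in the H2B differences was not tested. The H2B median was 0.51 in osteoclasts, and between 0.42 and 0.76 with the other settings. In macrophages it was -0.00, where its sign changed with the setting between -0.05 and 0.06. H2bc21, which encodes an H2B known from mouse olfactory neurons, was at 3.57 in LysM-St18flox osteoclasts and 2.05 in wild-type osteoclasts, and at 1.5 in LysM-St18flox macrophages and 1.13 in wild-type macrophages. In osteoclasts its level was 2.86-fold higher with LysM-St18flox, and a second probe gave a difference of 1.76. H2bc23 differed by 0.97 in osteoclasts and 0.37 in macrophages, H2bc4 by 0.76 and 0.13, and H2bc1, the testis H2B, by 0.71 and -0.05. H2bc3 differed by 0.69 and -0.08 by its brightest probe, H2bc14 by 0.53 and -0.24, and H2bc15 by 0.49 and 0.04. A second, dimmer probe of H2bc3 gave a smaller difference of 0.23 in osteoclasts, and -0.18 in macrophages.

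Lower or near 0 in LysM-St18flox osteoclasts were H2bc18, H2bc7, H2bc6 and H2bu2. H2bc18 was at -0.45 and 1.13 in LysM-St18flox and wild-type osteoclasts, and at -0.48 and 0.58 in LysM-St18flox and wild-type macrophages. It was 2.98-fold lower in LysM-St18flox osteoclasts and 2.08-fold lower in LysM-St18flox macrophages, the only H2B gene past 2-fold in that direction. H2bc7 differed by -0.69 in osteoclasts and -0.56 in macrophages, and H2bc6 by -0.42 and -0.19. H2bu2, of the former Hist3 cluster, differed by -0.04 and 0.53. H2bc22 was well above background in LysM-St18flox cells alone, at least 1.27-fold above wild-type osteoclasts and at least 1.22-fold above wild-type macrophages.

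Many H2A and H2B genes lie next to each other and are read in opposite directions from the stretch between them. By the order of genes in the gene table there were 7 neighbours of an H2A and an H2B gene with a probe for each. Their directions of reading were not checked. H2ac20 differed by -0.56 in osteoclasts and -0.71 in macrophages, while its neighbour H2bc21 differed by 1.52 and 0.38. H2ac4 differed by -1.30 and -1.06 beside H2bc3 at 0.69 and -0.08, and H2ac1 by -0.54 and -0.71 beside H2bc1 at 0.71 and -0.05. With both genes measured on both arrays, the H2A gene was below 0 and the H2B gene above 0 in 5 of 5 neighbours in osteoclasts and in 3 of 5 in macrophages. Since all 13 measured H2A genes were below 0 and 8 of 12 H2B genes above 0 in osteoclasts, the counts say nothing particular to neighbours. In another neighbour H2bc7 was at -0.69 in osteoclasts beside H2ac7, which was not measured, and in the last H2bc22 had only a bound.

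Upstream sequences of 5 genes are shown because they stand for the patterns above: H4c4 and H4f16 for the lower H4 genes, H2bc14 and H2bc18 for H2B genes that differed in opposite directions in osteoclasts, and H2az1 for the variants. They are the 250 bases before the annotated start, 5′ to 3′ on the gene's strand, from RefSeq on GRCm38.p6, at chr13:23581318-23581567 (plus strand) for H4c4, chr6:136804432-136804681 (minus) for H4f16, chr13:21721794-21722043 (plus) for H2bc14, chr3:96269450-96269699 (plus) for H2bc18 and chr3:137864237-137864486 (plus) for H2az1. Capitals mark 4 motifs. CCAAT was searched on both strands, so that its reverse complement ATTGG also counts. TATAAA was searched on the gene's strand. The octamer ATTTGCAT, which POU2F1 binds, was searched on both strands, as was GGTCCG, found in the promoter element particular to H4 genes; none of the motifs overlap here. GGTCCG was added to the search after these sequences had been seen.
H4c4: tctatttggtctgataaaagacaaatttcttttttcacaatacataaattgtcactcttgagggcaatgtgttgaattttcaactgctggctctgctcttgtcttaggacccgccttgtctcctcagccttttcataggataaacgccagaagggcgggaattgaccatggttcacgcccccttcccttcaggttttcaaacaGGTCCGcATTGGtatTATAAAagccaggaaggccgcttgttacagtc
H4f16: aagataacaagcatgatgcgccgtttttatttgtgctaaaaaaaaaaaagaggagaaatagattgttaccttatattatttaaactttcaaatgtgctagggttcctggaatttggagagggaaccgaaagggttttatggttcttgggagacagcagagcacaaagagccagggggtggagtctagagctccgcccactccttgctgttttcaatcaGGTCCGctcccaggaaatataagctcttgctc
H2bc14: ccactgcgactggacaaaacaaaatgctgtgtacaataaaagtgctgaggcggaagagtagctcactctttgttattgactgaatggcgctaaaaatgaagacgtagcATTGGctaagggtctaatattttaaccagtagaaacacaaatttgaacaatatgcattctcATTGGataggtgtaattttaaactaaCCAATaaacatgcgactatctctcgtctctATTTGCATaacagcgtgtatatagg
H2bc18: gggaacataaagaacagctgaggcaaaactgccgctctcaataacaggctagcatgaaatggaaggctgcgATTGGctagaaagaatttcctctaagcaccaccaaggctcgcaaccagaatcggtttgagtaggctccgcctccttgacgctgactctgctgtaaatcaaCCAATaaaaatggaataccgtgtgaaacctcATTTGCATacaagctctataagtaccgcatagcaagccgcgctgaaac
H2az1: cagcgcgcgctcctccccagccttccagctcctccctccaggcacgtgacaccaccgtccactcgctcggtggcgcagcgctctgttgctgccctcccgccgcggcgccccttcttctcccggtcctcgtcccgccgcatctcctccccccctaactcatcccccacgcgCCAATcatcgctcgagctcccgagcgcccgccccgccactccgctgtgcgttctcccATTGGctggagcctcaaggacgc

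Promoter entries existed for 53 members, with 54 starts, and some motifs were more frequent in some classes than in others. GGTCCG was chosen after the H4c4 and H4f16 sequences were seen, and both are counted, so its H4 share is not an independent result. GGTCCG was in 7 of 8 H4 promoters (87.5%), 1 of 5 H3 promoters, 3 of 10 variant promoters and in none of the clustered H1, H2A or H2B promoters, against 6.7% of all 32851 promoters of the same length. In H4c4 it began at position -47 from the start, followed by ATTGG at -40 and TATAAA at -32, and in H4f16 it began at -32. The octamer was in 5 of 11 H2B promoters (45.5%) and 5 of 14 H2A promoters (35.7%), in 1 of 10 variant promoters and in none of the clustered H1, H3 or H4 promoters, against 1.6% of all. CCAAT was in every H1, H2A, H2B and H3 promoter of the clustered genes but in 2 of 8 H4 promoters, against 33.8% of all and 5 of 10 variant promoters. TATAAA was in 40.9% of clustered promoters, 10.0% of variant promoters and 7.6% of all. H2bc14 and H2bc18 both held CCAAT and the octamer, and they differed by 0.53 and -1.58 between genotypes in osteoclasts. A match describes the letters in this window and not a bound site.

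Genotype differences in macrophages and in osteoclasts rest on separate arrays and were alike across histone genes. Over the 46 clustered genes with a value in each, Pearson's r was 0.88 and Spearman's rho 0.87, and 34 were below 0 in both. Over all 13671 genes on 4 arrays r was 0.37, and 4807 were below 0 in both. This is a correlation across genes, many of which may share probe signal, and not across replicates. The macrophages and osteoclasts of a genotype may also come from the same mice, which was not tested.

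**Figure D2:**
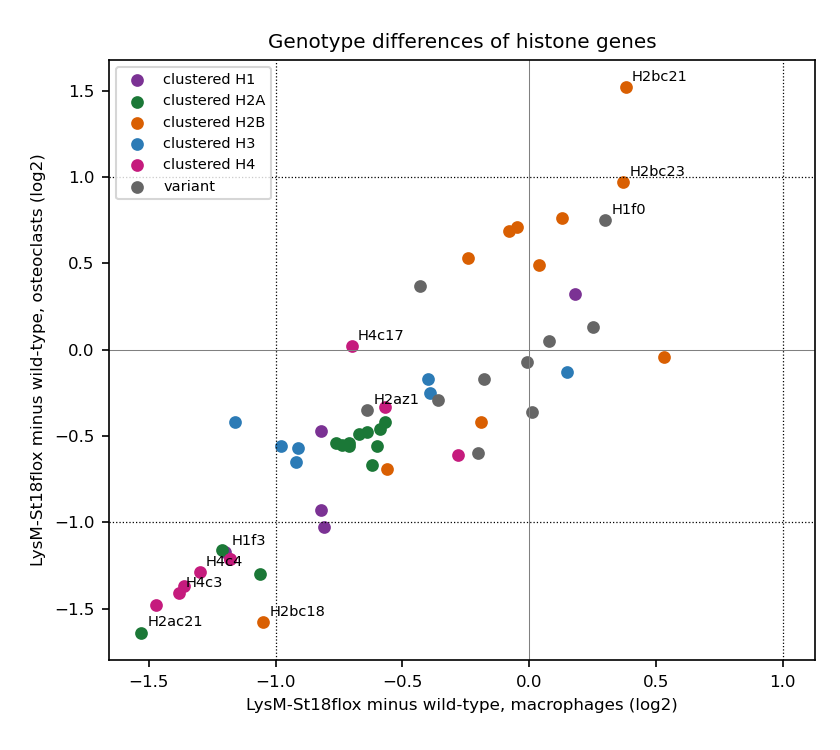
LysM-St18flox minus wild-type difference (log2) of each histone gene in osteoclasts (vertical axis) against that in macrophages (horizontal axis), with dotted lines at 2-fold. All 13 H2A genes and 8 of 9 H4 genes lie below 0 on both axes, and H2bc21 stands highest, at 1.52 in osteoclasts and 0.38 in macrophages.

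Signal strength moved with the genotype difference. Over all genes on 4 arrays with a mean log2 signal of 7 to 8, 153 in number, the median difference was -0.20 in osteoclasts and -0.34 in macrophages, and over the 44 genes at 8 to 9 it was -0.34 and -0.55. The 8 clustered genes between 7 and 8, all H2A, had medians of -0.52 and -0.65. Quantile normalization gives every array the same distribution of signals, and whether it removed the trend was not checked. With it the H2A median was -0.40 in osteoclasts and -0.28 in macrophages, and the H4 median -1.22 and -1.07. At 4 to 5, 5 to 6 and 6 to 7 the medians of all genes were -0.00, -0.01 and -0.06 in osteoclasts. In macrophages they were -0.15, -0.17 and -0.25. The 5 clustered genes at 5 to 6 had medians of -1.21 in osteoclasts and -1.06 in macrophages. The 1 clustered gene at 4 to 5 was at 0.76 and 0.13, and the 1 at 6 to 7 at -1.29 and -1.30. At signals below 4 the medians of all genes in osteoclasts and macrophages were -0.15 and 0.06 at -4 to -2, -0.00 and 0.04 at -2 to 0, 0.04 and 0.00 at 0 to 2, and 0.04 and -0.04 at 2 to 4. The clustered genes there varied, with medians of -0.04 and -0.70 over 5 genes at -4 to -2, -0.42 and -0.40 over 9 at -2 to 0, -1.29 and -1.13 over 6 at 0 to 2, and 0.49 and -0.24 over 9 at 2 to 4. The part of signal strength in the H2A difference was not tested.

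**Figure D3:**
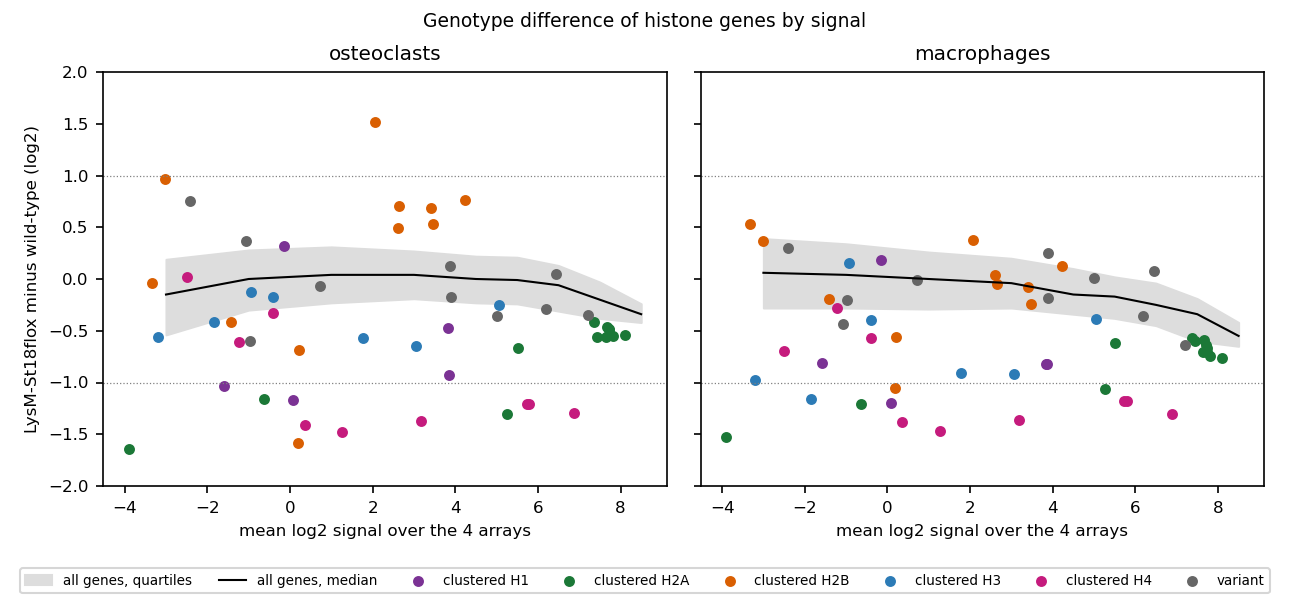
LysM-St18flox minus wild-type difference (log2) of each histone gene against its mean log2 signal, in osteoclasts (left) and macrophages (right). The black line and grey band are the median and quartiles of all genes on 4 arrays, which bend below 0 at the bright end, and the H4 genes past 2-fold lie below the band at every signal.

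Variant histone genes stayed within 2-fold between genotypes, as most genes did. With 11 measured in osteoclasts and 10 in macrophages, 0 past 2-fold is near the shares of all genes. Those were 3.82% higher and 3.93% lower in osteoclasts, and 3.30% and 3.01% in macrophages. H2az1, whose product replaces H2A at gene starts, was at 7.17 in LysM-St18flox osteoclasts and 7.53 in wild-type osteoclasts, and at 6.75 in LysM-St18flox macrophages and 7.39 in wild-type macrophages, where its difference of -0.64 was the lowest of the variants. H2ax, phosphorylated at DNA breaks, was at 3.93 and 4.11 in LysM-St18flox and wild-type osteoclasts, and at 3.68 and 3.86 in LysM-St18flox and wild-type macrophages. By the main scaling, H2az1 and H2ax were each lower in LysM-St18flox cells of both types, without reaching 2-fold. The H2ax difference in osteoclasts, -0.17, was the median of the variants, which was 0.08 with median centring. All genes as bright as H2az1, at 7 to 8, had medians of -0.20 in osteoclasts and -0.34 in macrophages. H3f3a and H3f3b encode the same H3 variant, which is also deposited outside S phase. H3f3a differed by 0.05 in osteoclasts and 0.08 in macrophages, and H3f3b by -0.29 and -0.36. The dimmest of 3 H3f3a probes gave -0.54 and -0.45.

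H1f0, the linker histone of cells that have left the cycle, was at -2.10 and -2.85 in LysM-St18flox and wild-type osteoclasts, and at -2.20 and -2.51 in LysM-St18flox and wild-type macrophages. Its difference of 0.75 in osteoclasts was the highest of the variants. H2az2, the second H2A.Z gene, differed by -0.36 in osteoclasts and 0.01 in macrophages. Macroh2a1, a repressive H2A variant with a large extra domain, differed by 0.13 and 0.25 by its brightest probe, and its relative Macroh2a2 by -0.07 and -0.01. Macroh2a3 differed by -0.60 and -0.20. H1f10, a replacement linker histone, differed by -0.68 in osteoclasts, and had no value in macrophages, where its wild-type reading of -4.96 was not well above background but exceeded the LysM-St18flox level of -5.38, so that no bound could be given.

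Few histone genes differed by 2-fold between osteoclasts and macrophages of the same genotype: H1f8 and H1f10 in both genotypes, and 5 H2B genes in LysM-St18flox cells. In the wild type, 2 of 57 measured histone genes were at least 2-fold higher in osteoclasts and 0 were lower, beside 5.70% and 7.32% of all 14734 genes. In LysM-St18flox, 7 of 57 were higher and 0 lower, beside 11.0% and 12.2% of all 15574 genes, so that the share of higher genes was near that of all genes. The median clustered gene differed by 0.15 in LysM-St18flox cells and 0.07 in wild-type cells. The H2A median was 0.11 in LysM-St18flox cells and 0.00 in wild-type cells, and the H4 median -0.01 and 0.08. In LysM-St18flox these ranged from -0.25 to 0.28 for H2A and from -0.10 to 0.16 for H4 over the other settings. The median of H3 was 0.28 in LysM-St18flox cells and -0.00 in wild-type cells, and that of clustered H1 0.14 and 0.26.

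H2B had the highest median of the clustered classes, 0.67 in LysM-St18flox cells and 0.30 in wild-type cells, and it was above 0 with every scaling. The 5 clustered genes past 2-fold in LysM-St18flox were all H2B. H2bc21 exceeded its macrophage level in osteoclasts 4.18-fold in LysM-St18flox and 1.90-fold in wild-type cells. H2bc4 was at 5.03 and 3.88 in LysM-St18flox osteoclasts and macrophages, and at 4.26 and 3.76 in wild-type osteoclasts and macrophages. In LysM-St18flox it was 2.21-fold higher in osteoclasts, H2bc14 2.17-fold, H2bc1 2.10-fold and H2bc3 2.09-fold, and in the wild type these 4 genes were 1.42-fold, 1.27-fold, 1.24-fold and 1.23-fold higher. With cyclic loess the 4 LysM-St18flox differences lay between 0.88 and 0.94, below 2-fold. Over 10 settings, H2bc3 was past 2-fold in 5, H2bc14 in 7, and H2bc4 and H2bc1 in 9 each. With quantile normalization H2bc3 was at 0.92 and H2bc14 at 0.99. The lowest H2B difference in LysM-St18flox was -0.71, of H2bu2.

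**Figure D4:**
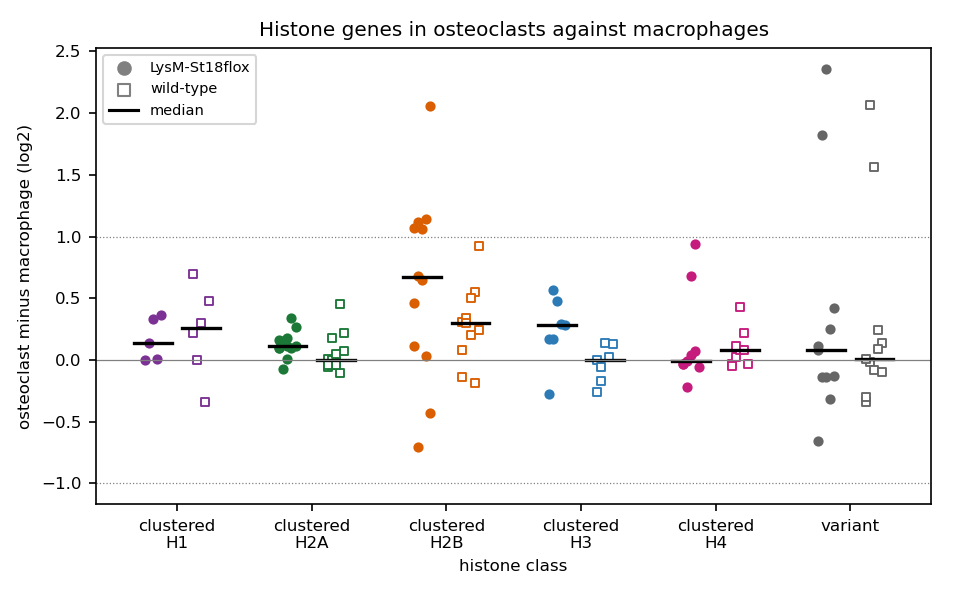
Osteoclast minus macrophage difference (log2) of each histone gene by class, with LysM-St18flox as filled circles left of wild-type as open squares, bars at the median and dotted lines at 2-fold. H2B genes spread furthest up among the clustered classes, and H1f8 and H1f10 lead the variants in both genotypes.

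The 2 linker variants past 2-fold in both genotypes were H1f8 and H1f10. H1f8, known as the linker histone of oocytes, was at 0.09 in LysM-St18flox osteoclasts and -2.26 in LysM-St18flox macrophages, and at -0.28 in wild-type osteoclasts and -1.83 in wild-type macrophages. Its level in osteoclasts was 5.12-fold higher in LysM-St18flox cells and 2.94-fold higher in wild-type cells, and its 1 probe was detected above background on each array. H1f10 was at -3.56 and -5.38 in LysM-St18flox osteoclasts and macrophages, a 3.53-fold higher level in osteoclasts. In wild-type osteoclasts it was at -2.88, at least 4.20-fold above wild-type macrophages. These are dim signals, and with another background correction (normexp) the H1f10 differences were 0.80 in LysM-St18flox cells and 0.75 in wild-type cells. H2az2 was lower in osteoclasts by 0.66 in LysM-St18flox cells and by 0.30 in wild-type cells, without reaching 2-fold. The dimmest of 4 Macroh2a1 probes was lower by 1.61 in LysM-St18flox cells and by 0.92 in wild-type cells, where the 3 brighter probes of the gene differed by -0.21 to -0.11 and by -0.03 to 0.02.

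Genes of DNA replication and mitosis lay in the same direction as the clustered histone genes. Of 34 S-phase genes, 33 were below 0 in LysM-St18flox osteoclasts and 33 in LysM-St18flox macrophages, with medians of -0.54 and -0.71, and 0 and 5 were at least 2-fold lower. All 20 mitosis genes were below 0 in each, with medians of -0.43 and -0.63, and none reached 2-fold. Of all genes, 50.4% were below 0 in osteoclasts and 51.9% in macrophages, and 3.93% and 3.01% were at least 2-fold lower. With median centring the osteoclast medians were -0.29 for S phase and -0.19 for mitosis. Over the settings, 29 to 33 S-phase genes and 17 to 20 mitosis genes were below 0 in osteoclasts. Tyms, which makes thymidylate for DNA synthesis, differed by -0.75 in osteoclasts and -1.08 in macrophages, Rrm2, a subunit of ribonucleotide reductase, by -0.48 and -0.90, and Pcna, the replication clamp, by -0.43 and -0.61. Mcm5, of the replicative helicase, differed by -0.01 and -0.37. Mki67, the proliferation marker, was at 5.23 and 5.63 in LysM-St18flox and wild-type osteoclasts, and at 5.10 and 5.71 in LysM-St18flox and wild-type macrophages. Top2a, a topoisomerase of dividing cells, differed by -0.36 and -0.60, and Cdk1, the mitotic kinase, by -0.47 and -0.74. The part of proliferation in the histone differences was not tested.

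Factors that transcribe and process histone mRNA stayed within 2-fold between genotypes, as most genes did. Of 19 such genes 0 reached 2-fold between genotypes in either cell type. Of all genes, 3.82% were that much higher and 3.93% lower in osteoclasts, and 3.30% and 3.01% in macrophages. At such shares 0 of 19 is not particular to these genes. The medians were -0.08 in osteoclasts and -0.15 in macrophages, the first of which was above 0 with median centring. Slbp was at 0.81 and 0.90 in LysM-St18flox and wild-type osteoclasts, and at 0.88 and 1.03 in LysM-St18flox and wild-type macrophages. Npat, the coactivator of the histone clusters, differed by -0.24 in osteoclasts and -0.27 in macrophages, and Casp8ap2, a partner of it, by -0.08 and -0.01. Cstf2, a cleavage factor of both histone and polyadenylated mRNA, was at 0.57 and -1.14 in LysM-St18flox osteoclasts and macrophages, and at 0.52 and -0.59 in wild-type osteoclasts and macrophages. It was the only one of the 19 past 2-fold between cell types, with differences of 1.71 in LysM-St18flox cells and 1.11 in wild-type cells.

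Histone chaperones, which carry new or exchanged histones to DNA, were split. Of 25, 1 was at least 2-fold lower in each genotype comparison, Hjurp, the chaperone of centromeric H3, at -1.04 in each by a dim signal. That count is near the share of all genes, of which 3.93% were that much lower in osteoclasts and 3.01% in macrophages. The median was -0.07 in osteoclasts, where its sign changed with the scaling, and -0.35 in macrophages. Among chaperones that act in replication, Asf1b differed by -0.58 in osteoclasts and -0.75 in macrophages, Chaf1a by -0.54 and -0.82, and Nasp by -0.54 and -0.60. Chaf1b differed by 0.30 and -0.68. Between cell types 2 of 25 chaperones were at least 2-fold higher in osteoclasts with LysM-St18flox, Chaf1b by 1.13 and Set by 1.16. In the wild type 1 was, Npm1 by 1.01. These counts are below the shares of all genes, 11.0% with LysM-St18flox and 5.70% in the wild type. Set and Npm1 are named after their values were seen. Among chaperones of replacement histones, Hira differed by -0.26 and -0.18, Atrx by 0.04 and 0.27 and Daxx by 0.18 and 0.30, while Anp32e, which removes H2A.Z, differed by -0.41 and -0.75. None of 10 genes of the complexes that exchange H2A.Z reached 2-fold in any of the 4 comparisons. Of all genes, 3.01% to 12.2% passed it in each direction of a comparison. The genotype medians of the 10 genes were -0.03 in osteoclasts and -0.02 in macrophages.

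**Figure D5:**
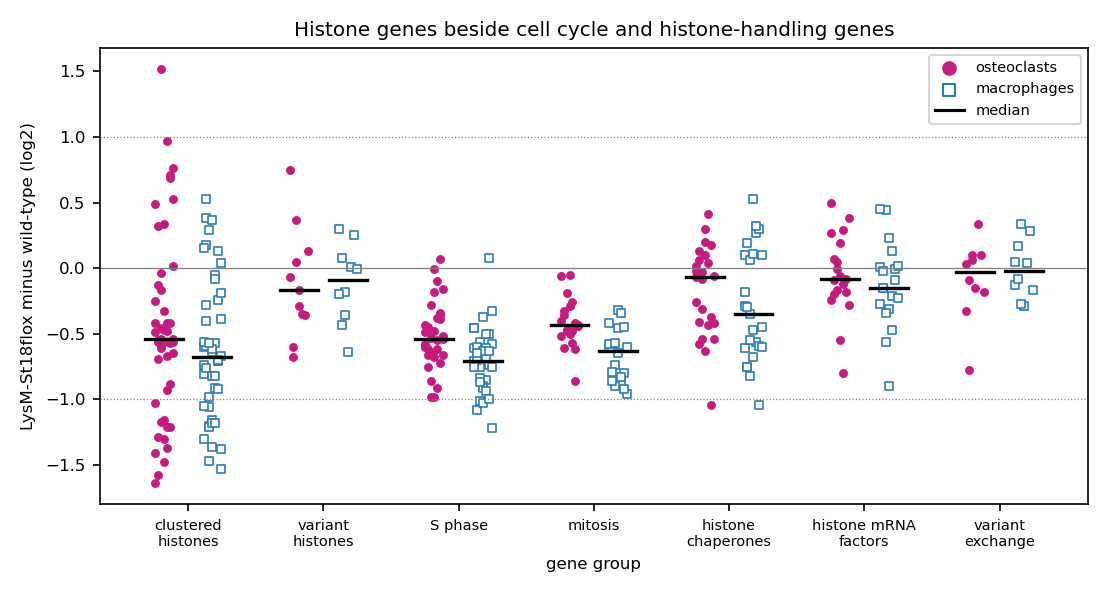
LysM-St18flox minus wild-type difference (log2) of each gene in 7 groups, osteoclasts as filled circles and macrophages as open squares, with bars at the median and dotted lines at 2-fold. Clustered histone, S-phase and mitosis genes have medians from -0.43 to -0.54 in osteoclasts and from -0.63 to -0.71 in macrophages, and clustered histone genes have the widest spread.

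Markers of other marrow cells were also read on these arrays. Summed marker signals, in units of the array's 75th percentile, were 9.87 and 14.3 for neutrophils in LysM-St18flox and wild-type osteoclasts, and 40.4 and 33.2 in LysM-St18flox and wild-type macrophages. For marrow progenitors, which divide, they were 5.63 and 6.28 in LysM-St18flox and wild-type osteoclasts, and 9.38 and 14.9 in LysM-St18flox and wild-type macrophages, so that the sum was lower in LysM-St18flox cells. The list was not uniform: in osteoclasts Cd34 differed by -0.08 and Spn by -0.22, Gata2 by 1.11, and Flt3 and Kit were higher by bounds of 0.55 and 0.19, with a median of 0.19 over the 5, against -0.24 over the 3 measured in macrophages. Of the 5 progenitor markers, 5 and 3 were well above background in LysM-St18flox and wild-type osteoclasts, and 3 and 2 in LysM-St18flox and wild-type macrophages; Kit, which defines them, was so in LysM-St18flox osteoclasts alone. B cell, erythroid, stromal and megakaryocyte sums were at most 1.70 on every array. T and NK cell sums were 2.40 to 3.71. Dendritic cell sums were 102 and 145 in LysM-St18flox and wild-type osteoclasts, and 101 and 164 in LysM-St18flox and wild-type macrophages, so that these too were lower in LysM-St18flox cells. Siglech gave most of that sum, at 6.68 and 7.18 on the log2 scale in LysM-St18flox and wild-type osteoclasts, and at 6.66 and 7.36 in LysM-St18flox and wild-type macrophages, while Flt3 and Zbtb46 were well above background on 2 arrays each. The part of other cells in the histone differences was not tested.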

How the data were processed

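RNA of 4 cultures was measured on 4 Agilent arrays, 1 per group as the labels group them. Per the submitters' processing notes, the software was Agilent Feature Extraction 11.0.1.1. The deposited intensity per spot is background-subtracted and detrended within the array, per the file headers, with no scaling between arrays. The authors also deposited log2 values for 30909 probes, whose columns are quantile-normalized by their values (sorted columns differ by at most 0.00065) and not centred (median 9.39). Spot flags are deposited as 0 or 1, per the file headers.

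Spots of a probe were averaged as log2 and the array's 75th percentile subtracted. The share of probes named through their RefSeq accession was 58.3% of 56575, and a gene took its probe of highest mean signal. A gene needed 1 array well above background; where the other was not, the difference is a bound. The file headers name another genome build than the gene table's, which gave names and neighbours only. Promoters came from RefSeq on GRCm38.p6. The number of arrays limits precision, and no p-value was computed. Alternatives were other scalings, a normexp background correction (limma 3.58.1) on median spot signals, since no mean signal is given, other filters and probes, and 1.5-fold. Python 3.11.15 was used, and the calls were tested on simulated data.

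The members and gene lists were chosen with earlier results of these data known. Named are every variant, the 10 clustered genes of highest signal, all at 2-fold or more in any comparison, the extremes of each class, and from the lists 18 preset genes and others at 2-fold in at least 2 comparisons.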

Additional observations from a re-analysis of the deposited data

Results flagged for a closer look

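Differences of opposite sign in parallel comparisons, each larger than 2 SDs of a difference between repeat spots, were found in 7 histone genes. The limit of 2 SDs was chosen after seeing the data, when a stricter limit first tried had picked no gene, and it leaves out the spread between cultures. With 1 array per group these contrasts were not tested. Between genotypes, H1f8 was at 0.37 in osteoclasts and -0.43 in macrophages (LysM-St18flox minus wild-type), H2bc14 at 0.53 and -0.24, and H3c7 at -0.13 and 0.15. Between osteoclasts and macrophages, H3c11 was at 0.57 in LysM-St18flox cells and -0.17 in wild-type cells, H2ac12 at 0.10 and -0.11, H3c1 at 0.17 and -0.26, and H1f0 at 0.11 and -0.34. Under the 9 settings other than 1.5-fold, 5 of these genes kept opposite signs in all 9. H3c7 did so in 7, with median centring (0.12 in osteoclasts and 0.16 in macrophages) and normexp (-0.19 and -0.03) giving 1 sign, and H2ac12 in 6, without quantile normalization, normexp and cyclic loess.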

How the results depend on the processing

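No paired analysis was possible because each group has 1 array and the labels give no replicate numbers. No histone gene past 2-fold changed sign under the 9 alternatives or under cyclic loess, which was added after seeing the data. Of the 34 differences past 2-fold, counted over genes and comparisons, between 28 and 34 stayed past it under each alternative; the authors' table had a value for 32 of them and the filter on both arrays for 33. The ranges of medians given as over scalings or settings cover the filter and probe alternatives too, but not 1.5-fold. Histone genes at least 2-fold higher in osteoclasts with LysM-St18flox than without numbered 1, against 4 with median centring, 2 with quantile normalization, the authors' table or cyclic loess, and 6 at 1.5-fold. Those at least 2-fold lower numbered 12, against 7 with median centring and 20 at 1.5-fold, and in macrophages 12, against 29 at 1.5-fold. Higher in LysM-St18flox osteoclasts than macrophages were 7, against 4 with quantile normalization or cyclic loess and 11 at 1.5-fold; lower were 0, against 1 by the dimmest probe of a gene and 2 at 1.5-fold. Higher in wild-type osteoclasts than macrophages were 2, against 1 with normexp, the authors' table or a filter on both arrays, and 4 at 1.5-fold. The counts at 1.5-fold have no share of all genes beside them, and show only how the counts move with the limit. Over all genes, 558 were higher and 575 lower in LysM-St18flox osteoclasts than in wild-type ones, against 1000 and 314 with median centring, which moved the median of all genes to 0.24 there and to 0.15 between LysM-St18flox cell types, 646 and 393 with quantile normalization, 432 and 263 in the authors' table and 316 and 220 with normexp. In macrophages 500 were higher and 456 lower, against 275 and 282 with normexp and 969 and 1128 without a filter on dim probes. The cause of these moves was not tested. Dim genes (H1f10, H2ac21) are limited by signal over background.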
